A study of Mus musculus with 8 samples.

Results

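The genes of the cytosolic and mitochondrial heat shock chaperones, proteins that fold other proteins and refold them after stress, were followed in bone marrow cells that the study calls leukemia stem cells (LSCs), from CML mice with and without imatinib. Their 38 genes were taken by symbol from a list that was drawn up with earlier results of these data known. They comprised 2 heat shock transcription factors, 3 HSP90 proteins, 7 HSP90 co-chaperones, 5 HSP70 proteins, 3 HSP110 proteins, 5 J-domain proteins, 3 HSP70 regulators, 1 small heat shock protein, both subunits of the mitochondrial chaperonin and 7 subunits of the cytosolic chaperonin TRiC. All 38 were found among the 15576 genes of the table, and 37 had enough counts to be tested, out of 11937 genes tested in all. LSCs were sorted from bone marrow of C57BL/6 mice that carried both BCR-ABL and SCL-tTA transgenes, and both groups shared this genotype. In these mice tTA is driven by SCL regulatory sequence, which is active in blood stem and progenitor cells, and BCR-ABL is switched on when tetracycline is withdrawn, so the leukemia starts from cells in which this sequence is active. The 4 CML libraries came from untreated mice. The 4 CML-TKI libraries came from mice given the tyrosine kinase inhibitor imatinib by gavage on alternate days, with a dose of 400 mg/kg for 30 days in the labels. That protocol is also repeated in the labels of the untreated samples, the study's legend for these LSCs gives a lower dose, and neither an age nor whether each library is a separate animal is given in the sources used here, so that p-values measure only the spread between these samples.

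Heat shock chaperones work as a relay. HSP70 proteins bind exposed stretches of unfolded proteins with the help of J-domain proteins, which deliver the client and start ATP hydrolysis, and of HSP110 proteins, which exchange the nucleotide. HSP90 receives part of these clients, kinases such as BCR-ABL among them, through co-chaperones, while the barrel-shaped chaperonins enclose whole proteins. The transcription factor HSF1 is held inactive by chaperones in unstressed cells and induces many of their genes when unfolded proteins accumulate, through heat shock elements made of inverted GAA and TTC units.

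Several libraries stood apart from the others of their group. Total counts ran from 4939644 to 8620101 in CML and from 1041552 in CML-TKI 3 to 5104268 in CML-TKI. CML 1, 2 and 3 resembled each other far more than any other libraries of a group did, with a chi-square per degree of freedom between 3.46 and 4.66, against 22.8 to 56.4 for all other pairs of a group. They exceeded counting noise, which repeat libraries of 1 sample can also do, so these values do not show whether they are separate samples. They were counted as 3 because the labels number them so, and calls with the 3 summed are given beside the main count. The ribosomal RNA gene Rn45s took 38.3% of all counts in CML 5, between 20.2% and 23.1% in the other CML libraries and between 9.23% and 22.5% in CML-TKI. The fourth CML column carried the number 5, which is in no label, and is called CML 5. CML-TKI 3 was the shallowest library, in which 3 counts correspond to 3.29 CPM (counts scaled to library size with TMM factors, the unit of all levels below unless stated), against 0.409 to 0.930 in the other 7. It also held 24977 CPM of 8 erythroid markers, against 66.0 to 467.5 in the other CML-TKI libraries. Its sums of B cell markers (249.9 CPM) and of T and NK cell markers (154.5 CPM) were also the highest of all 8 libraries.

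The genes of the sorting markers differed between the groups. The labels give a CD150-negative, CD48-positive gate for all 8 libraries, whereas the study defines LSCs as CD48-negative and CD150-positive. Slamf1, which encodes CD150, lay between 29.01 and 37.72 CPM in CML and between 0.620 and 6.58 in CML-TKI. Cd48 lay between 3.86 and 6.40 CPM in CML and between 39.9 and 178.2 in CML-TKI. By these RNA levels CML was nearer to the study's definition and CML-TKI nearer to the labelled gate. Which gate was used for which library is not known. Kit lay between 764.0 and 1023 CPM in CML and between 194.3 and 290.4 in CML-TKI. Ly6a, which encodes Sca-1, lay between 33.2 and 38.5 CPM in CML. It was at 44.3 CPM in CML-TKI 1 and between 1.56 and 9.61 in the other CML-TKI libraries. The summed level of 15 granulocyte markers ran from 168.1 to 284.7 CPM in CML and from 1538 in CML-TKI 1 to 8735 in CML-TKI, and 14 of its 15 tested genes were called higher, or 9 without CML 1 or CML 2. That of 10 monocyte and macrophage markers ran from 39.6 to 64.7 CPM in CML and from 1055 to 5311 in CML-TKI, with 9 of 10 called higher. The sum of 15 HSC markers ran from 2816 to 3625 CPM in CML and from 357.3 to 1014 in CML-TKI. Of these markers 6 of 14 tested were called lower, but 12 of 15 without CML-TKI 1 and 4 without CML 1, 2 or 3. The sum of 7 megakaryocyte markers ran from 1262 to 1568 CPM in CML and from 50.5 to 618.1 in CML-TKI, with 3 called lower, or 1 without CML 1, 2, 3 or 5 or CML-TKI 3 and 6 without CML-TKI 4. Of 5 basophil and mast cell markers 4 were in the table, and their sum ran from 1.92 to 3.86 CPM in CML and from 4.38 to 1125 in CML-TKI, with Cpa3, the sole gene tested, called higher but not without CML-TKI 2 or CML-TKI 4. No marker of these lists was at 0 in all 8 libraries. The part of these differences in the chaperone values was not tested, and in bulk samples fewer cells of a type and less RNA per cell cannot be told apart.

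Of the 37 chaperone genes tested, 5 rose in the CML-TKI libraries and 0 fell at an adjusted p under 0.05 (quasi-likelihood test of edgeR, with p-values adjusted by Benjamini-Hochberg over all genes tested). The 5 were the stress-inducible HSP70 genes Hspa1a and Hspa1b, the constitutive HSP70 gene Hspa8, the HSP110 gene Hsph1 and the co-chaperone gene Stip1. Of all genes tested, 6.29% were called higher and 3.93% lower. At an unadjusted p under 0.05, 13 chaperone genes were higher and 0 were lower, beside 13.7% and 12.1% of all genes tested. The 13 became 7 without CML-TKI 2 and with CML 1 to 3 summed, and 19 without CML-TKI 3. No share of all genes at this p is given for these fits. Of the 37 log2 fold changes 30 were positive, and their median was 0.39, beside a median of -0.000258 over all genes tested. The libraries of both groups did not overlap for 8 chaperone genes that were higher in CML-TKI, beside 10.3% of all genes tested, and for 1 that was lower, beside 13.1%. With DESeq2 10 chaperone genes were called higher and 0 lower, where 9.67% of all genes were called higher and 8.40% lower. With limma-voom and sample quality weights 8 were called higher and 0 lower, where 10.4% and 10.9% of all genes were called. Hspa1a, Hspa1b and Hsph1, 3 genes, were also at least 2-fold higher, as were 5.86% of all genes. The same 3 were left in edgeR without CML 1, where 2.97% of all genes were called higher, and without CML 3, where 3.34% were. With the alike CML libraries 1 to 3 summed to 1 library, 2 were left, Hspa1a and Hspa1b, and 0.812% of all genes were called higher. These 2 near-identical genes are counted separately in all these counts, and a count with both as 1 gene is given below.

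**Figure D1:**
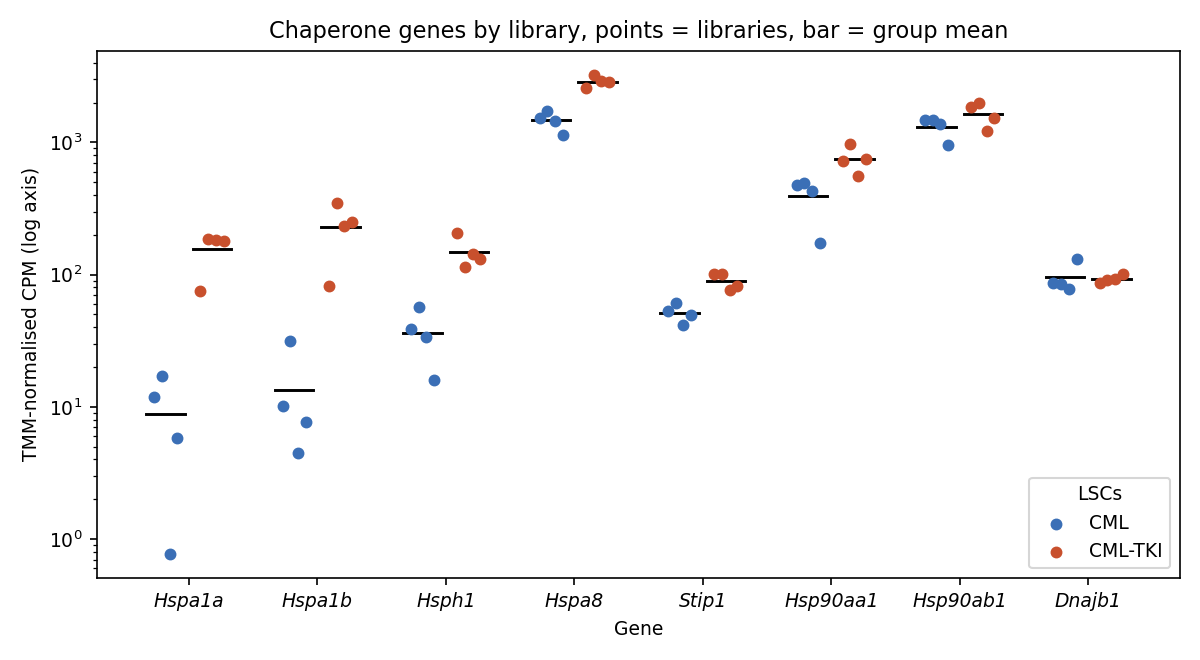
TMM-normalized CPM on a log axis of 8 chaperone genes in the 4 CML (blue) and 4 CML-TKI (red) libraries; points are libraries, in the order of their numbers, and bars are group means. The CML-TKI points of Hspa1a, Hspa1b, Hsph1, Hspa8, Stip1 and Hsp90aa1 all lie above the CML points, while those of Hsp90ab1 and Dnajb1 overlap with them.

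The largest differences were in Hspa1a and Hspa1b, neighbouring genes that encode the stress-inducible HSP70. Hspa1a was at 11.8, 16.98, 0.773 and 5.77 CPM in CML 1, 2, 3 and 5 and at 75.02, 185.6, 181.9 and 178.5 CPM in CML-TKI 1 to 4. Every CML-TKI library lay above every CML library, CML 3 with its 4 counts was the lowest, and CML-TKI 1 had less than any other CML-TKI library. In Hspa1a this made a log2 fold change of 4.13 (standard error, SE, 0.71, adjusted p = 0.00655, edgeR with Benjamini-Hochberg adjustment). Hspa1b was at 10.1, 31.7, 4.44 and 7.70 CPM in the CML libraries and at 82.6, 345.9, 231.3 and 251.1 CPM in the CML-TKI libraries. Again the groups did not overlap, and CML 3 and CML-TKI 1 were the lowest of their groups. Its log2 fold change was 4.08 (SE 0.66, adjusted p = 0.00499, same test). Both calls were kept when any of the 8 libraries was left out, with log2 fold changes between 3.74 and 4.62 for Hspa1a and between 3.79 and 4.92 for Hspa1b. Without CML 5 and CML-TKI 4, which leaves libraries 1 to 3 of each group, both calls were lost (adjusted p = 0.0669 and 0.0563, edgeR), at log2 fold changes of 3.90 and 3.85. In those 6 libraries 2 chaperone genes were called, Hspa8 and Hsph1, beside 3.32% of all genes called higher.

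Hspa1a and Hspa1b cannot be told apart with certainty by short reads. Their coding sequences are 99.4% identical, with 1915 identical bases in coding sequences of 1923 and 1926 bases, and both had estimated counts that were not whole numbers in all 8 libraries, which shows that reads were divided between genes or transcripts. When the counts of both were summed to 1 gene, an alternative chosen after seeing the data, the level was 21.9, 48.6, 5.22 and 13.5 CPM in the CML libraries and 157.6, 531.5, 413.2 and 429.6 CPM in the CML-TKI libraries. The sum was higher in 4 of 4 CML-TKI libraries, and its log2 fold change of 4.10 (SE 0.66, adjusted p = 0.00475, edgeR with Benjamini-Hochberg adjustment) did not depend on how reads were divided between the copies. With the pair as 1 gene, 36 chaperone genes were tested and 4 were called higher, beside 6.28% of all genes. The coding identity of Hspa1a with Hspa8 was 74.1%.

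The upstream sequences of the pair are shown because these genes had the largest changes and because both hold the letters GAANNTTC, a short form of the heat shock element. They are the 250 bases before the RefSeq start site (GRCm38.p6), chr17:34972157-34972406 for Hspa1a and chr17:34959239-34959488 for Hspa1b, both on the minus strand and written 5′ to 3′. This motif or its other form, TTCNNGAA, was found in 17% of all genes with a promoter window, and binding was not measured. Capitals mark the motif GAANNTTC, which lies 104 to 97 bases before the start site in both.
Hspa1a: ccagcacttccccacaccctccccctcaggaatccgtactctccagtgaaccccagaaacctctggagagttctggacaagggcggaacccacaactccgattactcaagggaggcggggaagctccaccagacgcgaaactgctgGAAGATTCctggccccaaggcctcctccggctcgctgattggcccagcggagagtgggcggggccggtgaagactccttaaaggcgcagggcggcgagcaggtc
Hspa1b: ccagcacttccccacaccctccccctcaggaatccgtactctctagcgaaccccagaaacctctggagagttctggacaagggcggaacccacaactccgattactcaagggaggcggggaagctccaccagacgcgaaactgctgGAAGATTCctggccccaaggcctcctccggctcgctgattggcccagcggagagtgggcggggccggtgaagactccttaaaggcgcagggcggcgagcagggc
Over the 300-base window from 250 bases before the start site onward, the sequences differed at C44T, T47C, T249G and C276T, with the Hspa1a base given ahead of the position counted from 1 at the first base of the window, and the Hspa1b base after it. None of these positions lies in the motif.

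Hspa8 encodes HSC70, the constitutive HSP70 of the cytosol, and was the chaperone gene with the highest level per length in both groups. It was at 1540.5, 1729.6, 1444 and 1147 CPM in the CML libraries and at 2558, 3249, 2889 and 2843 CPM in the CML-TKI libraries. No CML-TKI library overlapped with the CML libraries, of which CML 5 was the lowest. This is a log2 fold change of 0.98 (SE 0.19, adjusted p = 0.0122, edgeR with Benjamini-Hochberg adjustment), that is 1.97-fold. Without CML 1 or without CML 3 the adjusted p was 0.0543 and 0.0558, with log2 fold changes of 1.01 and 0.96, and the call was kept when any of the other 6 libraries was left out.

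The other HSP70 proteins were not called. Hspa14, an HSP70-like protein that works at the ribosome, was at 64.7 ± 6.17 CPM in CML and at 65.1 ± 17.97 CPM in CML-TKI (SD, n = 4). Its log2 fold change was 0.02 (adjusted p = 0.972, edgeR) and turned negative under 8 of the alternatives. Hspa9, the mitochondrial HSP70 that pulls imported proteins into the matrix, was at 214.7 ± 35.8 and 247.5 ± 84.2 CPM (SD, n = 4), or 0.21 as log2 fold change (SE 0.28, adjusted p = 0.685, edgeR). Its log2 fold change was 0.04 without CML-TKI 2 and 0.39 without CML-TKI 3. Thus 3 of 5 HSP70 genes rose, beside 6.29% of all genes, but 2 of 5 without CML 1, without CML 3 or with CML 1 to 3 summed. These 2 were Hspa1a and Hspa1b, which reads cannot tell apart with certainty. The median log2 fold change of the 5 was 0.98.

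HSP110 proteins serve HSP70 as nucleotide exchange factors, and Hsph1, also known as Hsp105, had the largest change after the inducible HSP70 genes. Hsph1 was at 38.9, 56.7, 33.6 and 16.1 CPM in the CML libraries and at 205.3, 114.7, 142.5 and 132.2 CPM in the CML-TKI libraries. The groups did not overlap, with CML 5 the lowest and CML-TKI 1 the highest library. Its log2 fold change was 2.03 (SE 0.37, adjusted p = 0.00869, edgeR with Benjamini-Hochberg adjustment), that is 4.10-fold, and the call was kept when any library was left out, with values between 1.78 and 2.32. Hspa4l was at 51.5, 59.3, 50.6 and 17.9 CPM in CML and at 60.2, 118.1, 54.8 and 80.9 CPM in CML-TKI. CML 5 was far below the others, and the groups overlapped because CML 2 lay above CML-TKI 3. The log2 fold change of Hspa4l was 0.82 (SE 0.39, adjusted p = 0.223), and that of Hspa4, the most abundant per length of the 3 in both groups, was 0.42 (SE 0.33, adjusted p = 0.470). Without CML 5 they were 0.54 and 0.21, and without CML-TKI 2 that of Hspa4 was 0.25.

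J-domain proteins deliver clients to HSP70, and 0 of 5 passed the threshold, beside 6.29% of all genes called higher, with 1 higher at an unadjusted p under 0.05, beside 13.7%. That gene was Dnajb6, known for keeping aggregation-prone proteins soluble. Dnajb6 was at 40.9, 45.4, 45.6 and 43.7 CPM in the CML libraries and at 61.2, 90.5, 73.4 and 65.3 CPM in the CML-TKI libraries. The groups did not overlap and the CML libraries hardly differed, yet the log2 fold change of 0.72 (SE 0.21) had an adjusted p of 0.0581 in edgeR. It was called by DESeq2 (adjusted p = 0.0113), by limma-voom with sample quality weights (adjusted p = 0.0260) and by edgeR without CML-TKI 1 (adjusted p = 0.0299). Dnajb1, the main J-domain partner of inducible HSP70 and itself a heat-inducible gene, had similar means in both groups. It was at 87.0, 85.1, 78.5 and 130.9 CPM in CML and at 86.2, 91.7, 92.1 and 100.4 CPM in CML-TKI, so that CML 5 was the highest of all libraries. For Dnajb1 the log2 fold change was -0.04 (SE 0.22, adjusted p = 0.928, edgeR), and without CML 5 it was 0.14. Dnaja1 and Dnaja2, J-domain proteins of the class that resembles bacterial DnaJ, had log2 fold changes of 0.43 and 0.44 (adjusted p = 0.272 and 0.226), and Dnajb4 had -0.32 (SE 0.43, adjusted p = 0.695). That of Dnajb4 was -0.67 without CML-TKI 1, -0.084 without CML-TKI 2, -0.099 without CML-TKI 3 and -0.50 without CML-TKI 4, and -0.60 in libraries 1 to 3 of each group.

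Proteins that steer HSP70 were also below the threshold, with 0 of 3 genes called beside 6.29% of all genes called higher. Bag3, which links HSP70 to selective autophagy and is heat-inducible, was at 12.7, 11.8, 12.6 and 14.6 CPM in the CML libraries and at 24.9, 27.9, 28.5 and 13.3 CPM in the CML-TKI libraries. CML-TKI 1, 2 and 3 lay above all CML libraries and CML-TKI 4 lay within them. The log2 fold change was 0.86 (SE 0.34, adjusted p = 0.144, edgeR). St13, an HSP70-interacting protein, had 0.41 (adjusted p = 0.413). Stub1, the ubiquitin ligase CHIP that marks HSP70 and HSP90 clients for degradation, had -0.06 (adjusted p = 0.921), a value whose sign turned under 6 of the alternatives.

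The heat shock transcription factors were not called. Hsf1, which drives the heat shock response, was at 45.5, 48.8, 49.3 and 47.7 CPM in CML and at 49.6, 38.4, 42.7 and 48.6 CPM in CML-TKI. The groups overlapped, and the log2 fold change of Hsf1 RNA was -0.09 (SE 0.21, adjusted p = 0.830, edgeR). RNA levels do not report the activity of HSF1, which is set at the protein. Hsf2, a related factor that can join HSF1, was at 19.3, 12.4, 12.9 and 6.74 CPM in CML and at 32.3, 17.04, 51.5 and 25.2 CPM in CML-TKI. CML 1 lay above CML-TKI 2, so the groups overlapped. Its log2 fold change was 1.27 (SE 0.44, adjusted p = 0.0986 in edgeR and 0.0425 in DESeq2).

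Among HSP90 proteins 0 of 3 passed the threshold, beside 6.29% of all genes called higher. Hsp90aa1, the inducible cytosolic HSP90, was at 476.8, 489.7, 425.7 and 173.0 CPM in CML and at 723.3, 979.3, 555.7 and 747.7 CPM in CML-TKI. The groups did not overlap, and CML 5 lay far below the other CML libraries. For Hsp90aa1 the log2 fold change was 0.94 (SE 0.33) with an adjusted p of 0.103 in edgeR, 0.0351 in DESeq2 and 0.0381 in limma-voom with sample quality weights. Hsp90ab1, the constitutive form, whose coding sequence was 75.7% identical to that of Hsp90aa1, was at 1467, 1487, 1372 and 948.5 CPM in CML and at 1854, 1986, 1225 and 1516 CPM in CML-TKI. CML-TKI 3 lay below 3 of the CML libraries, and the log2 fold change was 0.32 (SE 0.23, adjusted p = 0.424), or 0.18 without CML 5 and 0.21 without CML-TKI 2. For Trap1, the mitochondrial HSP90, it was -0.21 (SE 0.23, adjusted p = 0.629), but -0.090 without CML-TKI 1, -0.099 without CML-TKI 3, -0.34 without CML-TKI 2 and -0.31 without CML-TKI 4.

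Co-chaperones of HSP90 were led by Stip1, known as HOP, the adaptor that hands clients from HSP70 to HSP90. Stip1 was at 52.8, 61.4, 41.4 and 49.4 CPM in the CML libraries and at 101.2, 100.7, 76.7 and 81.4 CPM in the CML-TKI libraries. The groups did not overlap, and the log2 fold change was 0.82 (SE 0.21, adjusted p = 0.0403, edgeR with Benjamini-Hochberg adjustment). This call was close to the threshold. Its adjusted p was 0.122, 0.0765, 0.139 and 0.0721 without CML 1, 2, 3 and 5, and 0.0885 and 0.0607 without CML-TKI 2 and CML-TKI 4, while the log2 fold change stayed between 0.72 and 0.91. The call was also lost with total counts in place of TMM (adjusted p = 0.0566), with total counts without Rn45s (adjusted p = 0.0765), without the filter on low counts (adjusted p = 0.0644) and with CML 1 to 3 summed (adjusted p = 0.317). Chordc1, a heat-inducible HSP90 partner also called morgana, was at 34.6, 38.6, 30.0 and 26.7 CPM in CML and at 63.1, 96.7, 34.0 and 49.7 CPM in CML-TKI. Only CML-TKI 3 lay within the CML libraries, and the log2 fold change was 0.92 (SE 0.33), with an adjusted p of 0.106, or 0.0409 without CML-TKI 3 (edgeR). Without CML-TKI 2 its log2 fold change was 0.60. Cdc37, the adaptor that brings kinases to HSP90, was the sole chaperone gene that was lower in every CML-TKI library. It was at 90.2, 92.1, 87.0 and 101.6 CPM in CML and at 72.9, 81.2, 57.0 and 72.8 CPM in CML-TKI, with a log2 difference of -0.38 (SE 0.19, adjusted p = 0.253). The remaining 4 had log2 fold changes between 0.27 and 0.33 and were not called: Ahsa1, which activates the HSP90 ATPase, Ptges3, the p23 protein that stabilises closed HSP90, and the immunophilins Fkbp4 and Fkbp5. Single libraries moved these values. Without CML-TKI 1 they were 0.11 for Fkbp4 and 0.47 for Fkbp5, without CML-TKI 2 they were 0.18 for Ahsa1 and 0.00072 for Ptges3, and without CML-TKI 3 they were 0.52 for Fkbp4, 0.17 for Fkbp5 and 0.55 for Ptges3. Fkbp5 is also induced by glucocorticoids. In a list of 15 glucocorticoid-induced genes, 1 of the 14 tested was called higher and 2 lower, beside 6.29% and 3.93% of all genes, or 0 lower without CML 1, 2, 3 or 5 and 1 lower without CML-TKI 4, and the list's sum ran from 503.0 to 703.2 CPM in CML and from 309.9 to 399.6 in CML-TKI.

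**Figure D2:**
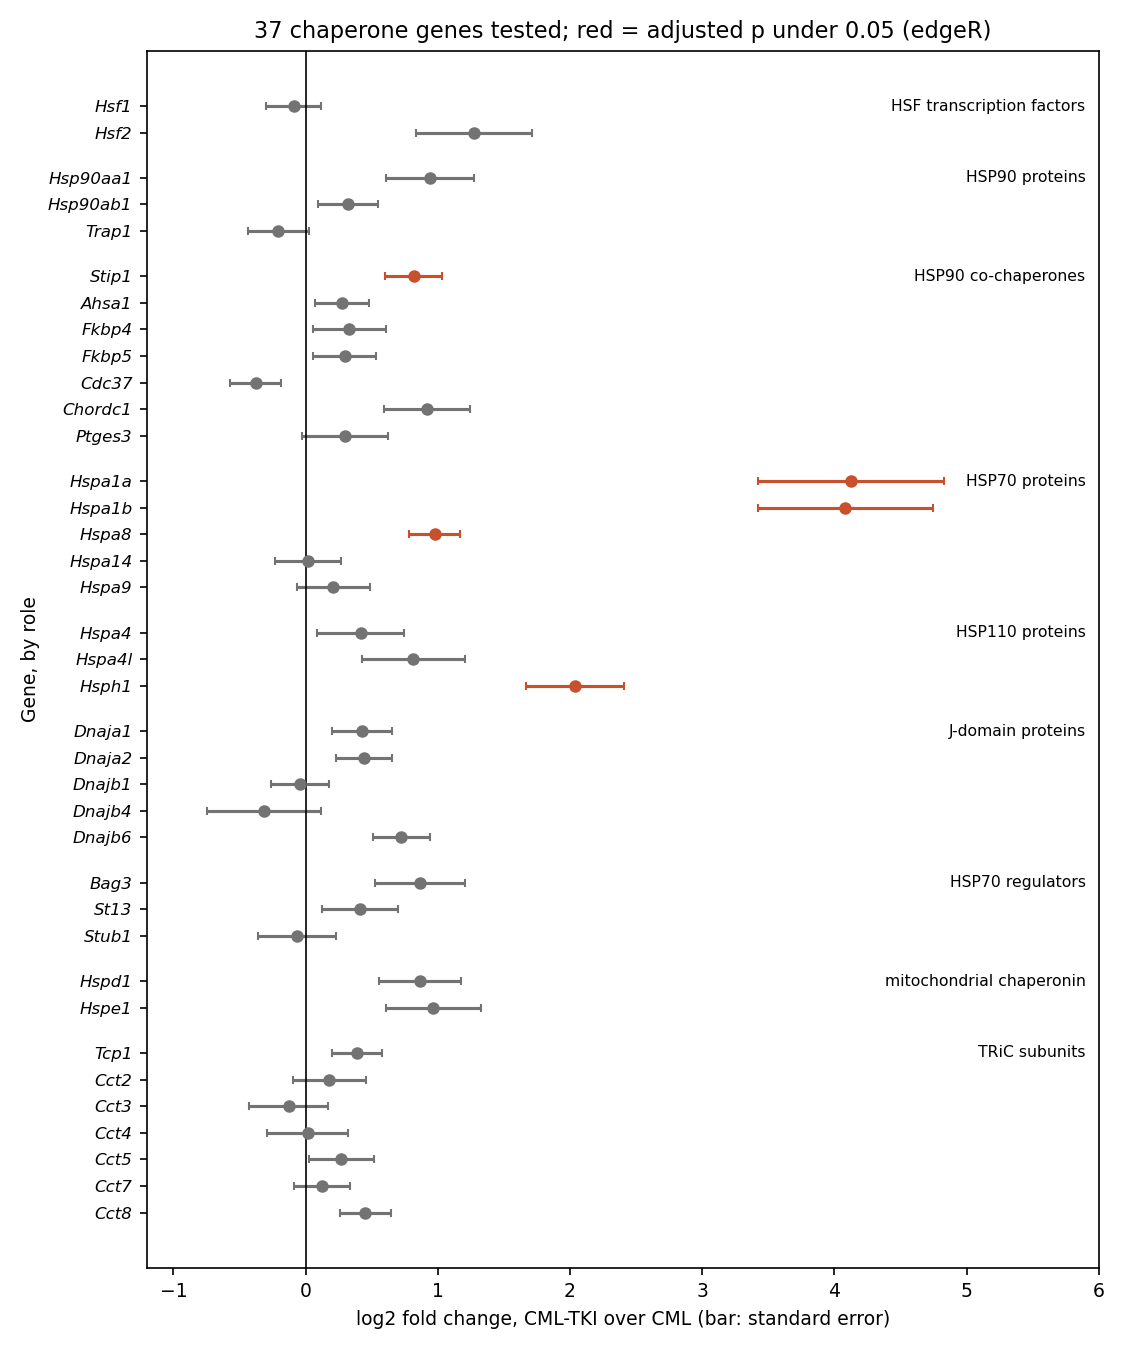
Log2 fold change of CML-TKI over CML for the 37 chaperone genes tested, ordered by role; bars are standard errors and red marks an adjusted p under 0.05 in edgeR. The 2 inducible HSP70 genes stand at 4.13 and 4.08 and Hsph1 at 2.03, while all other genes lie between -0.38 and 1.27.

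The mitochondrial chaperonin is a cage of HSP60 (Hspd1) closed by a lid of HSP10 (Hspe1), and both genes had similar values without passing the threshold. Hspd1 was at 136.7, 154.0, 122.3 and 98.4 CPM in CML and at 292.7, 317.0, 119.5 and 197.7 CPM in CML-TKI. CML-TKI 3 lay within the CML libraries and the other CML-TKI libraries lay above them. For Hspd1 the log2 fold change was 0.86 (SE 0.31), with an adjusted p of 0.110, 0.0463 in DESeq2, and 0.0307 in edgeR without CML-TKI 3. Hspe1 was at 11.6, 14.1, 9.08 and 17.9 CPM in CML and at 30.8, 30.7, 15.3 and 25.2 CPM in CML-TKI. Here too CML-TKI 3, with 14 counts, was the sole library to overlap with CML. For Hspe1 the log2 fold change was 0.97 (SE 0.36), with an adjusted p of 0.120 in edgeR and 0.0242 in limma-voom with sample quality weights.

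The cytosolic chaperonin TRiC folds actin and tubulin, and 0 of the 7 subunit genes among the members passed the threshold, beside 6.29% of all genes called higher, with 1 higher at an unadjusted p under 0.05, beside 13.7%. DESeq2 and limma-voom called 0 of the 7, beside 9.67% and 10.4% of all genes. The subunit with that p was Cct8, at 203.5, 219.5, 185.9 and 180.8 CPM in CML and at 308.5, 299.4, 230.2 and 241.2 CPM in CML-TKI. Its groups did not overlap, and the log2 fold change was 0.45 (SE 0.19, adjusted p = 0.167). The summed level of the 7 subunits was 1529, 1658, 1440 and 1537 CPM in the CML libraries and 2261, 1896, 1221 and 1679 CPM in the CML-TKI libraries. CML-TKI 1 was the highest and CML-TKI 3 the lowest of all 8. The log2 fold changes of the 7 ran from -0.13 in Cct3 to 0.45 in Cct8 with a median of 0.18. All 7 were positive without CML-TKI 3, 4 were positive without CML-TKI 1, and 4 were positive when libraries were scaled by totals without Rn45s, so no direction is given for them. The eighth subunit gene, Cct6a, is in the list of other cytosolic chaperones and was not called, with a log2 fold change of 0.24 (SE 0.30, adjusted p = 0.673, edgeR).

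The small heat shock protein gene Hspb1 had 0, 3, 0 and 14 counts in the CML libraries and 5, 0, 0 and 0 in the CML-TKI libraries and was not tested. It encodes HSP27, which holds unfolded proteins for HSP70. A count of 0 in the shallowest CML-TKI library allows up to 3.29 CPM, so it does not exclude a level like the 1.92 CPM of CML 5 there. In CML-TKI 2 and CML-TKI 4, which also had 0 counts, the same bound was 0.930 and 0.780 CPM.

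**Figure D3:**
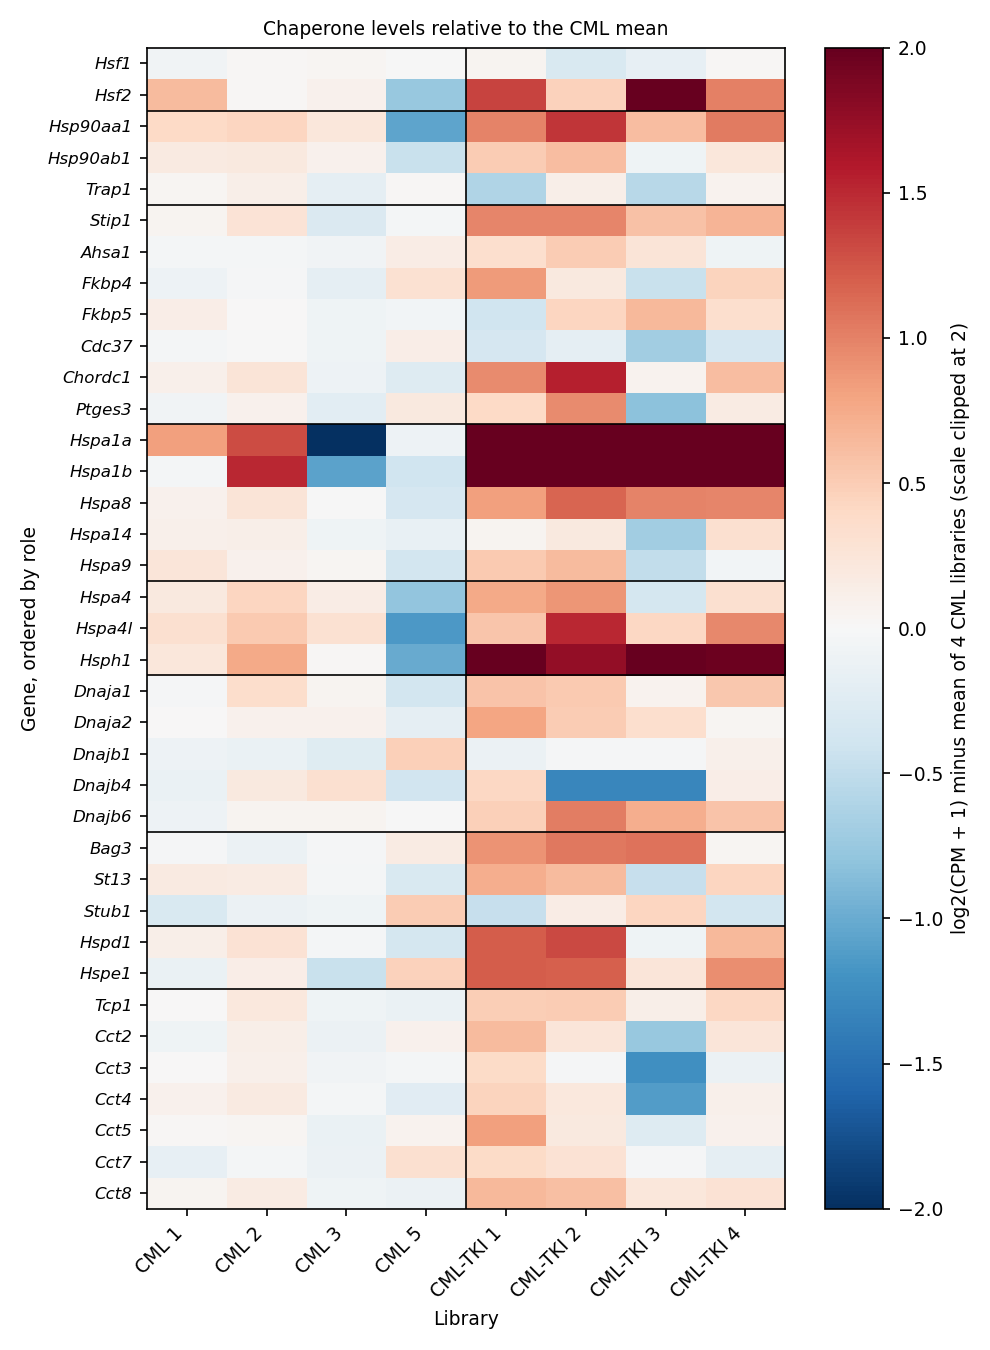
Level of the 37 tested chaperone genes in each of the 8 libraries as log2(CPM + 1) minus the mean of the 4 CML libraries, with genes ordered by role and separated by lines; the colour scale is clipped at 2 in either direction. Hspa1a, Hspa1b and Hsph1 are red in all 4 CML-TKI libraries, and the TRiC rows are blue mainly in CML-TKI 3.

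Ordered by level per kilobase of the principal transcript, Hspa8 stood at the top in both groups, with 612.1 ± 102 CPM per kb in CML and 1205 ± 119 in CML-TKI (SD, n = 4). Hsp90ab1 came next, with 523.2 ± 99.9 and 652.9 ± 136 CPM per kb. These neighbours were within their spread in CML and apart in CML-TKI. Hsp90aa1 and 6 of the TRiC subunits held the ranks from 3 to 9 in CML, with the lowest of them at 92.9 CPM per kb. The inducible HSP70 genes moved most in this order. Hspa1a was 37 of 38 in CML, at 2.98 ± 2.38 CPM per kb, and 17 of 38 in CML-TKI, at 52.3 ± 18.1 (SD, n = 4). Hspa1b went from rank 35, at 4.81 ± 4.403 CPM per kb, to rank 13, at 81.2 ± 38.8 (SD, n = 4), and Hsph1 from rank 31 to rank 22. Per length Hspa8 thus remained the more abundant HSP70 RNA in both groups, and Hspb1 was the lowest of the 38 in both.

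The chaperones were also divided by a list of 17 genes that heat can induce. It includes genes such as Hspa8 and Stip1 that are expressed without heat and raised further by it. Of its 16 tested genes 5 rose and 0 fell, beside 6.29% and 3.93% of all genes, and 3 were called without CML 1 or without CML 3. Of the 16, 14 log2 fold changes were positive, and the median was 0.86. Its summed level was 2730, 3049, 2528 and 1997 CPM in the CML libraries and 4740, 5987, 4662 and 5054 CPM in the CML-TKI libraries, with no overlap between the groups. Hspa8 and Hsp90aa1 made up most of these sums. Of the other 21 chaperone genes 0 were called, beside 6.29% of all genes called higher. At an unadjusted p under 0.05, 3 were higher, beside 13.7% of all genes, and DESeq2 called 2 higher, beside 9.67%, so in these fits the counts were near those of all genes. The unadjusted count was 6 without CML-TKI 3 and 2 without CML-TKI 2, for which no share of all genes is given. The median of these 21 was 0.27, but 0.09 without CML-TKI 1 and 0.15 without CML-TKI 2, and their summed level ran from 3592 to 4499 CPM in CML and from 3549 in CML-TKI 3 to 5715 in CML-TKI. The list was written with results of these libraries known and is not independent evidence of a direction.

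Heat shock elements were then searched by letters in the RefSeq promoter windows, which run from 250 bases before to 50 after each start site in GRCm38.p6. Windows were found for 31 of the 38 genes. The longer motif, GAANNTTC extended by NNGAA or TTCNNGAA extended by NNTTC, was present in 5 of these 31 genes, or 16.1%, beside 0.662% of the 27025 genes with a window. The 5 were Hsph1, Dnajb6, Chordc1, Hspd1 and Hspe1. The shorter motif, GAANNTTC or TTCNNGAA, which lies inside each longer one, was present in 16 of 31 genes, or 51.6%, beside 17% of all genes. In the heat-inducible list 11 of 15 genes with a window held it, and in the other chaperone genes 5 of 16. The forms given for each motif cover both strands. Of the called genes with a window, Hsph1 held the longer motif, Hspa1a and Hspa1b the shorter alone, and Stip1 neither. A match is a description of letters and not of a bound site, and Hsf1 binding was not measured here.

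Hsph1, Dnajb6 and Chordc1 are shown because they carry the longer motif close to the start site and were higher in most or all CML-TKI libraries, and the Hspe1 upstream window because it is shared with Hspd1. The choice was made with these values known, and Dnajb6 and Chordc1 were not called in the main edgeR fit. In Hsph1 the match lies from 36 to 48 bases after the first start site and from 15 to 27 bases after the second. Hsph1 is the stretch chr5:149636280-149636308 on the minus strand, Dnajb6 chr5:29735844-29735872 and Chordc1 chr9:18292259-18292287 on the plus strand, and Hspe1 chr1:55087898-55088147 on the plus strand, all in GRCm38.p6, 5′ to 3′, with matches of the longer motif in capitals.
Hsph1: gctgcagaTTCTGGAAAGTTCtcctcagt
Dnajb6: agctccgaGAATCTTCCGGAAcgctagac
Chordc1: accgGAACGTTCGGGAAAATTCCTGAAgc
Hspe1: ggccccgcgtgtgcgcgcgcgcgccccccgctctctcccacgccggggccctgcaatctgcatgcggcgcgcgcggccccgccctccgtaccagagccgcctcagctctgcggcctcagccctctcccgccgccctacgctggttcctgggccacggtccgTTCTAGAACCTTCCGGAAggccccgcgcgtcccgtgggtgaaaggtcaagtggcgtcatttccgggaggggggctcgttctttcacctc
In Chordc1 overlapping matches run on from 4 bases before the start site to 18 bases after it. Hspd1 and Hspe1 are transcribed away from each other, with annotated gene ends from 55077833 to 55088243 and from 55088148 to 55091317 on chromosome 1, and the run of overlapping matches from 89 to 72 bases before the Hspe1 start site is the same run that lies in the window of the second Hspd1 start site, at 55087932. The window of the other Hspd1 start site, at 55088243, holds no match.

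**Figure D4:**
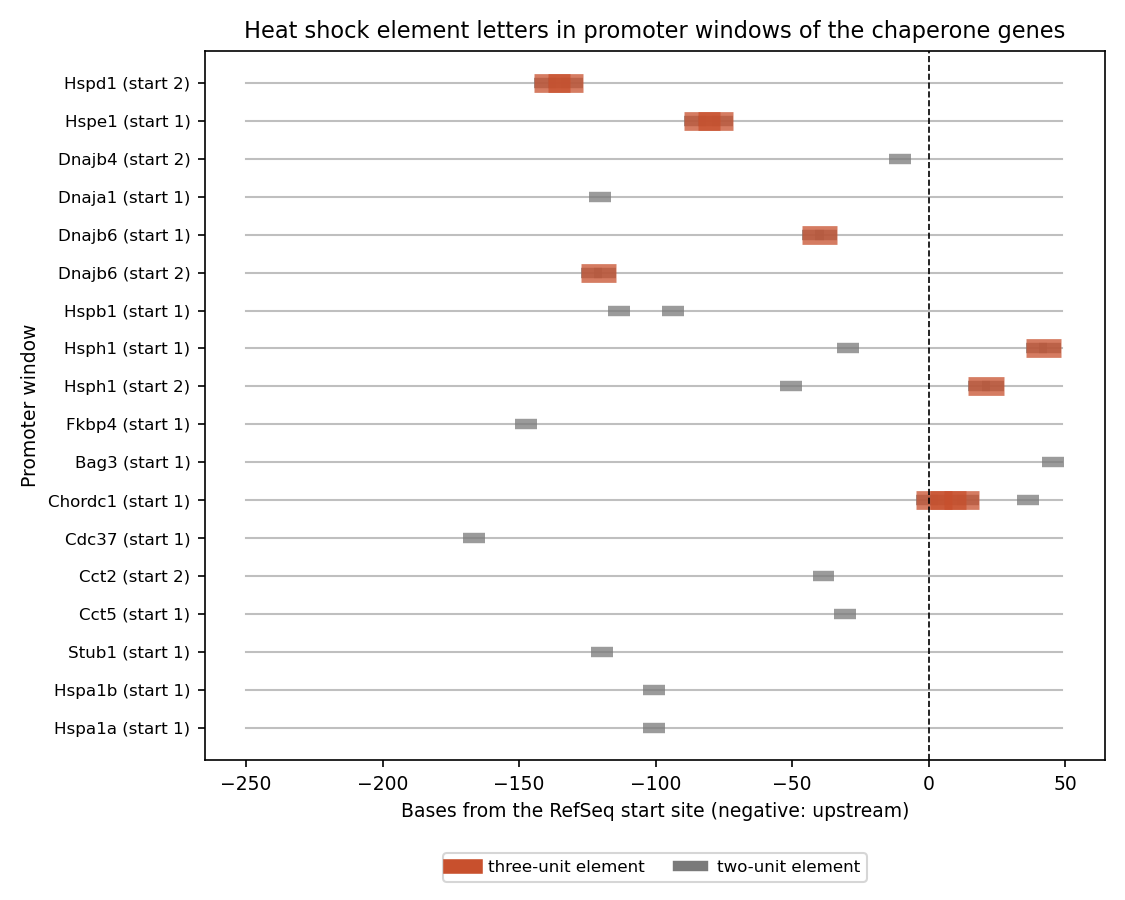
Positions of the longer (red) and shorter (grey) heat shock element motif in the promoter windows of the chaperone genes that hold a match, in bases from the RefSeq start site, with upstream negative; genes with several start sites have a line for each. Hspa1a and Hspa1b hold the shorter motif at the same distance, from -104 to -97, and Hspd1 and Hspe1 hold the run they share.

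Chaperones outside the 38 genes were counted in the same way. Of 75 other cytosolic chaperones and co-chaperones 69 were in the table and 56 were tested. In edgeR 0 were called, beside 6.29% of all genes called higher and 3.93% lower, and the median log2 fold change was 0.02. At an unadjusted p under 0.05, 4 were higher and 4 lower, beside 13.7% and 12.1% of all genes. These counts were 6 and 7 without CML-TKI 1, 2 and 1 without CML 1, and 1 and 3 without CML-TKI 2. DESeq2 called 2 higher and 2 lower, beside 9.67% and 8.40%, and limma-voom 1 and 3, beside 10.4% and 10.9%. Without CML-TKI 1, 3 were called lower in edgeR, beside 11% of all genes. Without CML-TKI 3 or CML-TKI 4, 1 was called higher, beside 5.62% and 5.30% of all genes. Of 21 other mitochondrial chaperones and proteases 0 were called higher and 1 lower, with a median of 0.02. That gene was Hscb, a J-domain protein of iron-sulfur cluster assembly, at 15.9, 12.9, 15.5 and 22.8 CPM in the CML libraries and at 5.70, 1.24, 2.19 and 4.16 CPM in the CML-TKI libraries. The groups did not overlap, and the log2 fold change of Hscb was -2.27 (SE 0.54, adjusted p = 0.0271, edgeR with Benjamini-Hochberg adjustment). This call was lost without CML 1, 2, 3 or 5 (adjusted p = 0.0884, 0.0672, 0.0760 and 0.0773) and with CML 1 to 3 summed (adjusted p = 0.239), at log2 fold changes between -2.48 and -2.10.

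Immediate early genes, which respond fast to stress or cell handling, were mostly lower in CML-TKI. Of 19 immediate early genes, such as Fos and Jun, 17 were tested, and 10 were called lower and 1 higher, beside 3.93% and 6.29% of all genes, with a median log2 fold change of -1.80. The number lower was 5 without CML 1, 2, 3 or 5, and 3 with CML 1 to 3 summed. Their summed level ran from 1986 to 3226 CPM in CML and from 646.0 to 675.1 CPM in CML-TKI. CML 5 was the highest library of this sum. For the heat-inducible chaperone genes its place among the CML libraries went both ways. It was the lowest for Hspa8, Hsph1 and Hsp90aa1, among others, and the highest for Dnajb1, Fkbp4, Ahsa1, Hspe1 and Bag3. The sum of 18 proliferation genes ran from 2979 to 3801 CPM in CML and from 3937 to 5758 CPM in CML-TKI. Of these 5 were called higher, beside 6.29% of all genes, but 1, 3 and 2 without CML 1, 2 and 3, and 0 with these 3 libraries summed. Within the CML-TKI group the granulocyte sum of CML-TKI 1 lay at 1538 CPM against at least 8247 in the other 3, and CML-TKI 1 was also the lowest for Hspa1a and Hspa1b but the highest for Hsph1. Without CML-TKI 1 the chaperone genes called higher were 6, Dnajb6 being added, where 9.64% of all genes were called higher. The part of the marker genes, proliferation and handling in the chaperone values was not tested.

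**Figure D5:**
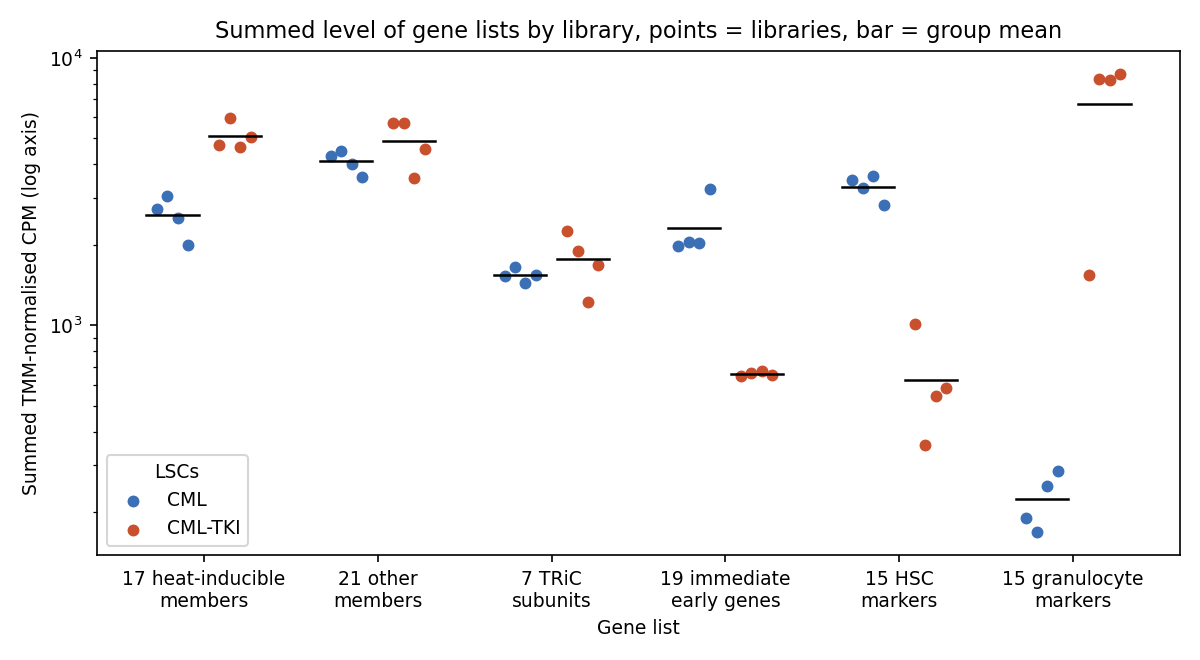
Summed TMM-normalized CPM on a log axis of 6 gene lists in the 4 CML (blue) and 4 CML-TKI (red) libraries, with points for libraries and bars for group means; the TRiC subunits are part of the 21 other members. The heat-inducible sums of the groups do not overlap, from 1997 to 3049 CPM in CML and from 4662 to 5987 in CML-TKI, while those of the TRiC subunits do.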

How the data were processed

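Bulk RNA-seq of 4 CML and 4 CML-TKI LSC libraries was used. The authors isolated RNA with an RNeasy Plus kit, made Nextera XT libraries, aligned reads with STAR 2.6.1d and quantified them in Partek 8.0, as their processing notes and text give it, with mm10 (GRCm38) named as the mouse build. The deposited values are estimated counts, not normalized, for each gene, and of the 38 chaperone genes 17 had values that were not whole numbers, where only a value written as an exact whole number was taken as whole. Neither strand nor near-identical genes are mentioned in how reads were counted, so overlapping genes and close copies are uncertain. The range of depth in each group is given with the results. Floors of 3 counts cover counting error only, since reads without molecular identifiers are not independent molecules.

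Counts were rounded and tested over the whole table with edgeR 4.0.16 in R 4.3.3 (TMM, filterByExpr with a minimum count of 10 and minimum total of 15, robust quasi-likelihood test, Benjamini-Hochberg adjustment, threshold 0.05), group only. This leaves out genes with few counts, Hspb1 among them. Standard errors are the log2 fold change over the square root of F. Levels are TMM-normalized CPM, per kilobase of the principal GENCODE M21 transcript where genes are compared. Upstream sequences and start sites are from RefSeq (GRCm38.p6), and coding sequences were aligned with Biopython 1.88. The members and all gene lists were chosen with earlier results of these data known. Named were all 38 members and, of 2 lists of other chaperones, genes past the threshold. Cct6a, which did not pass it, was named after its values were seen. The column called CML 5 was placed by its group name alone. DESeq2 1.42.0, limma-voom (limma 3.58.1), other scalings and filters, the replicate block and left-out libraries were tried as alternatives.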

Additional observations from a re-analysis of the deposited data

Results flagged for a closer look

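Each of the 76 sets of 4 library values (38 genes in both groups) was searched for a library far from the other 3, by Dixon's test. It flagged 5 sets, where chance gives about 3.8. Hspa1a was at 75.02 CPM in CML-TKI 1 and between 178.5 and 185.6 CPM in the other CML-TKI libraries. Dnaja1, a J-domain protein gene, was at 69.0 CPM in CML-TKI 3 and between 94.8 and 97.6 CPM in the other CML-TKI libraries. Dnajb1 was at 130.9 CPM in CML 5, against 78.5 to 87.0 CPM in the other CML libraries. Ahsa1, the activator of the HSP90 ATPase, was at 64.8 CPM in CML 5, against 55.7 to 56.7 CPM in the other CML libraries. Hspb1 was at 0.950 CPM, 5 counts, in CML-TKI 1 and at 0 in the other CML-TKI libraries.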

How the results depend on the processing

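Of the 37 chaperone genes tested, edgeR called 5 higher and 0 lower, and 0 were lower under every alternative run. The number called higher was 10 with DESeq2, 8 with limma-voom and sample quality weights, 3 when a change of at least 2-fold was also asked for and 2 with CML 1 to 3 summed to 1 library, and it ranged from 3 to 7 when libraries were left out. Over the fits with a library left out, between 2.97% and 9.64% of all genes were called higher. The number of members was 4 with total counts, with total counts without Rn45s and without the filter on low counts, Stip1 being lost in each. In these fits 5.76%, 5.09% and 4.18% of all genes were called higher. With Hspa1a and Hspa1b summed to 1 gene it was 4 of 36, beside 6.28% of all genes. Hspa1a, Hspa1b and Hsph1 were called without any single library, Hspa8 in 6 and Stip1 in 2 of these 8 fits. Same-numbered libraries did not vary together (correlations of deviations of -0.042, 0.097 and 0.093), so the numbers do not show a pairing. With the replicate block on libraries 1 to 3 of each group the count was 1, Hspa1b, where 1.24% of all genes were called higher, against 2, Hspa8 and Hsph1, for these 6 libraries without the pairing, and fewer libraries were used in both. Some log2 fold changes near 0 changed sign, and the cause was not tested. With the block and, in second place, on those libraries without it they were -0.18 and -0.13 for Hspa14, 0.12 and 0.12 for Dnajb1, 0.22 and 0.26 for Stub1, and -0.21 and -0.070 for Cct4. With total counts without Rn45s, which moved the median of all genes to -0.12 and that of the members to 0.27, they were -0.10 for Hspa14, -0.093 for Cct4 and -0.0045 for Cct7. Without the filter they were -0.012 for Hspa14 and -0.016 for Cct4. With limma-voom they were 0.16 for Dnajb1, 0.0093 for Stub1 and -0.14 for Cct4. Cct4 was -0.0036 with RLE size factors and -0.0021 with DESeq2, Dnajb1 was 0.038 with total counts, and Cct7 was -0.0071 with CML 1 to 3 summed. With libraries left out the ranges were -0.10 to 0.20 for Hspa14, -0.13 to 0.14 for Dnajb1, -0.23 to 0.13 for Stub1, -0.016 to 0.40 for Cct2, -0.36 to 0.11 for Cct3 and -0.16 to 0.26 for Cct4. Depth limits Hspb1, which the counts could not place above the floor in CML-TKI 3.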
